A study of Mus musculus with 9 samples.

Results

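Circular RNAs (circRNAs) were counted for the genes of histone-modifying enzymes and chromatin remodellers in C2C12 cells, a myoblast line from mouse skeletal muscle. A host, the gene within which a circRNA lies, was taken when its symbol began with Kmt, Kdm, Kat, Setd, Smarc, Arid or Hdac, or with Chd and a digit. A single host with a Kat symbol was set aside. This gave 73 of 6943 host genes and 557 of 37751 circRNAs. The prefix Kat also took in 5 katanin genes with 25 circRNAs, whose proteins sever microtubules and do not act on chromatin, so 68 hosts with 532 circRNAs remain without them. The 13 hosts of the Kmt and Setd symbols were Kmt2a, Kmt2c, Kmt2d, Kmt2e, Kmt5a, Kmt5b, Setd1a, Setd2, Setd3, Setd5, Setd7, Setdb1 and Setdb2. The 14 Kdm hosts were Kdm1a, Kdm2a, Kdm2b, Kdm3a, Kdm3b, Kdm4a, Kdm4b, Kdm4c, Kdm5a, Kdm5b, Kdm5c, Kdm6a, Kdm6b and Kdm7a. The 6 acetyltransferase hosts were Kat2b, Kat5, Kat6a, Kat7, Kat8 and Kat14, and the 7 deacetylase hosts Hdac2, Hdac3, Hdac4, Hdac5, Hdac7, Hdac8 and Hdac9. The remaining hosts, grouped by symbol alone and not by a shown role in remodelling, were Smarc, Arid and Chd genes. The 11 Smarc hosts were Smarca2, Smarca4, Smarcad1, Smarcal1, Smarcb1, Smarcc1, Smarcc2, Smarcd1, Smarcd2, Smarcd3 and Smarce1. The 8 Arid hosts were Arid1a, Arid1b, Arid2, Arid3a, Arid3b, Arid4a, Arid4b and Arid5b. The 9 Chd hosts were Chd1, Chd1l, Chd2, Chd3, Chd4, Chd6, Chd7, Chd8 and Chd9.

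The 9 libraries fell into 3 groups of 3. Day 0 cells were proliferating and below confluence in medium with fetal bovine serum, and day 3 and day 6 cells had spent that many days in medium with less serum, from horse, which lets myoblasts stop dividing and fuse. All came from this 1 immortal line without any genetic change or added agent named in the labels. Nothing in the labels says that the libraries of a day are separate cultures, and p-values therefore describe the spread among these libraries alone, part or all of which may be technical.

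A circRNA is a closed loop that forms when a splice donor joins an acceptor lying upstream of it, and it is recognised by reads across that back-splice junction. Its level follows the transcription of the host, the choice of back-splicing over linear splicing, and the slow decay of a molecule without ends. Chromatin enzymes write and erase methyl and acetyl groups on histones, and remodellers slide or evict nucleosomes with energy from ATP. In muscle cells these proteins are known for opening myogenic genes and closing cell cycle genes as myoblasts leave the cycle. They are encoded by long genes with many exons: the median largest exon count of an annotated transcript was 22 for the 73 hosts and 13 for the other hosts, and the median gene span was 59630 and 43328 bases.

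The junctions of 10 circRNAs are shown because the counts rest on such junctions: the 7 with the most reads, the leading circle of Kmt2e, and a further circle each of Kmt2a and Kmt2e that shares an exon edge with the first. In each line the lower-case letters are the end of the last exon of the circle and the capitals the start of its first exon, read 5′ to 3′ on the host's strand. They were joined from GENCODE M21 transcripts (GRCm38), with 30 bases on each side where both sides are coding and 15 otherwise. The circles of Kmt2a end at the same exon and those of Kmt2e begin at the same exon, so their lines differ on one side only.
Arid1b, exons 2 to 4, chr17:5040580-5127024 (+): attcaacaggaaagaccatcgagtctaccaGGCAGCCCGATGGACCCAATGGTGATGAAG
Chd2, exons 3 to 5, chr7:73514090-73519708 (-): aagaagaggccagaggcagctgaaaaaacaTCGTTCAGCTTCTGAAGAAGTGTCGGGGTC
Setd3, exons 2 to 6, chr12:108157754-108165172 (-): tataaagtcatccagTCAGAAAATGGGTAA
Kdm4b, exons 2 to 5, chr17:56351633-56356056 (+): cgagcctaagtcctgGTGTAGCTCCACTTT
Kdm2a, exons 19 to 20, chr19:4320152-4321056 (-): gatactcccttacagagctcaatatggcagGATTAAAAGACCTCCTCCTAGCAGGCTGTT
Kmt2c, exons 21 to 25, chr5:25347361-25353408 (-): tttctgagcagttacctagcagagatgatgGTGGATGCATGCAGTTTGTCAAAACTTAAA
Kmt2a, exons 19 to 20, chr9:44828784-44829271 (-): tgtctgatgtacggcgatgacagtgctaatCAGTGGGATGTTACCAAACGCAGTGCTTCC
Kmt2a, exons 16 to 20, chr9:44828784-44831397 (-): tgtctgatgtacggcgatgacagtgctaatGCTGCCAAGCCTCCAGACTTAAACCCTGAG
Kmt2e, exons 3 to 7, chr5:23450152-23471806 (+): gagaaaatatgtcagGGTTTGTGGATGCAC
Kmt2e, exons 3 to 6, chr5:23450152-23467188 (+): acgttgtcagcccagGGTTTGTGGATGCAC

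Reads were unevenly spread over these circles. The 557 circRNAs had 30746 reads over the 9 libraries, 1.08% to 1.26% of the back-splice reads of a library, and the 12 most abundant ones held 40.2% of them. In all, 326 circRNAs (58.5%) were seen in 1 library, against 61.1% of the circRNAs of other hosts, and 16 (2.87%) in all 9, against 4.04%. Those 16 held 44.6% of the reads, while circRNAs present in all 9 libraries held 60.7% of the reads of other hosts. The circle of Arid1b, a DNA-binding subunit of the BAF (SWI/SNF) remodeller, was the most abundant with 2790 reads. It spans exons 2 to 4, has a spliced length of 465 bases, and lies between introns of 44087 and 115803 bases. Next came Setd3 exons 2 to 6 with 1439 reads, Chd2 exons 3 to 5 with 1358, Kdm4b exons 2 to 5 with 1209, Kdm2a exons 19 to 20 with 1156 and Kmt2c exons 21 to 25 with 1004. The remaining 6 were Kmt2a exons 19 to 20 with 724 reads, Kdm1a exons 3 to 9 with 620, Kmt2e exons 3 to 7 with 604, Katnal1 exons 2 to 4 with 581, Smarcc1 exons 14 to 19 with 444 and Kmt5b exons 3 to 5 with 439. The 11 circles after Arid1b thus had 439 to 1439 reads each, and all but one of the 12 had reads in every library. The exception, exons 3 to 5 of Kmt5b, had 62, 0 and 48 reads at day 0.

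Hosts differed in how many circles they made. Arid1b had 31 circRNAs, Chd2 and Kmt2c had 28 each, Kdm2a had 19 and Smarcc1 had 17, whereas Setd3 had 3. The median was 6 circRNAs per host, against 3 for other hosts. Setd3, despite its name a methyltransferase of actin, placed 93.9% of its 1532 reads in a single circle of exons 2 to 6. At the other end, the leading circle of Smarcc1, a core scaffold of BAF, held 42.3% of its 1049 reads. The median share of the leading circle over the 12 hosts with the most reads was 61.6%.

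Circles of a host often shared an exon edge. At Kmt2a, the founding MLL methyltransferase, 4 of 10 circRNAs ended at exon 20 and held 90% of its reads, among them the 2 circles shown above. At Kmt2e, a relative with a SET domain of little known catalytic activity, 6 of 15 circRNAs began at exon 3 and held 88.8% of its reads. At Arid1b, 11 of 31 began at exon 2, with 84.4% of its reads. At Katnal1, a katanin-like gene, 7 of 10 began at exon 2, with 93.8%. In the map of circles by exon, circles elsewhere in Arid1b and Kmt2c had far fewer reads than the leading circle of the gene.

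**Figure D1:**
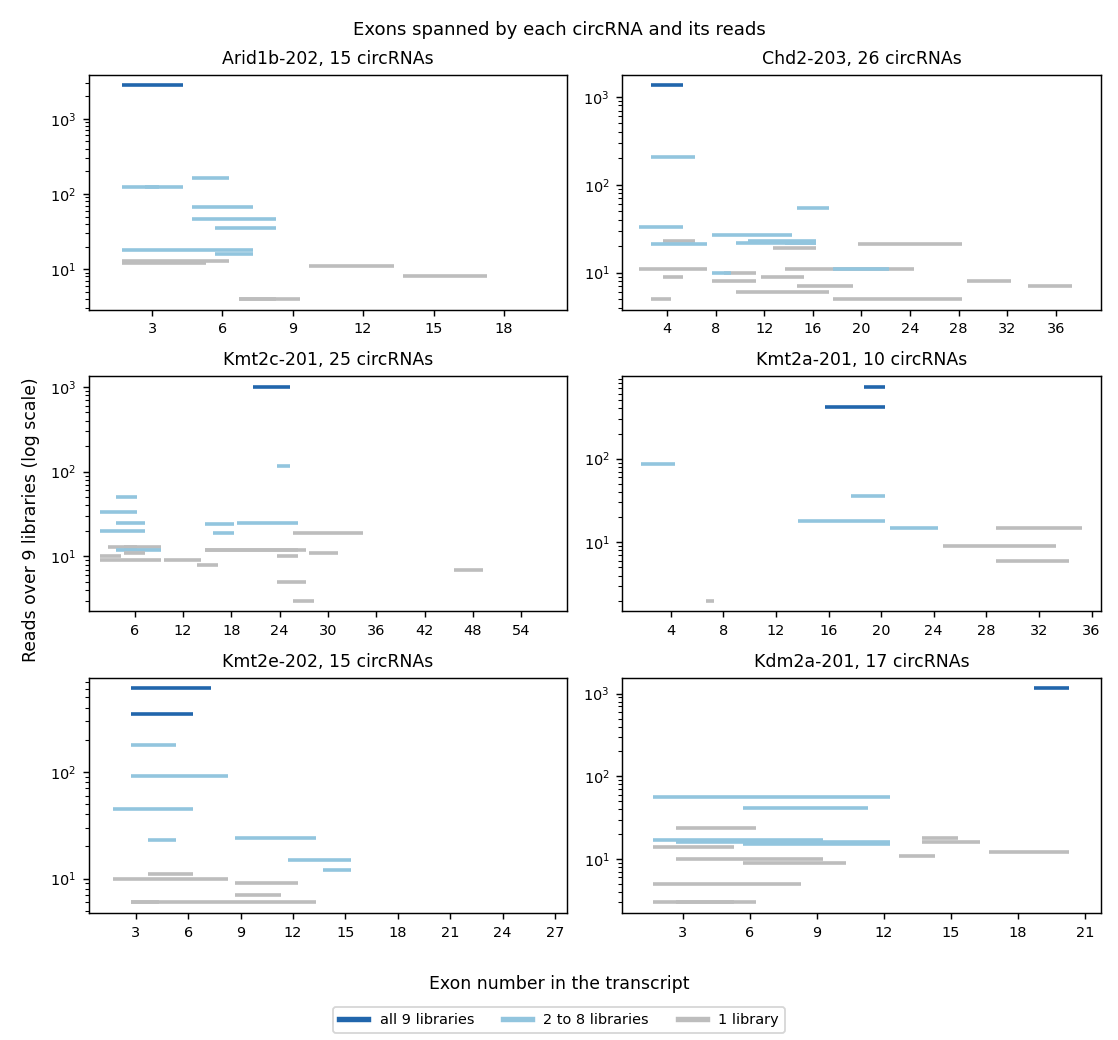
Circles of 6 hosts, each drawn as a bar from its first to its last exon (horizontal axis, exon number) at its reads over 9 libraries (vertical axis, log scale); only circles placed on the transcript named in the title are drawn. Dark blue bars had reads in all 9 libraries, and in each panel they stand above nearly all others, at exons 2 to 4 of Arid1b, 3 to 5 of Chd2, 21 to 25 of Kmt2c, 16 to 20 and 19 to 20 of Kmt2a, 3 to 7 and 3 to 6 of Kmt2e and 19 to 20 of Kdm2a.

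The make-up of the circles was much like that of other hosts, given here as a description without a test. In all, 475 circRNAs (85.3%) were typed as exonic and had both ends at exon edges of the same annotated transcript, against 79% for other hosts. These held a median of 4 exons in both sets and a median spliced length of 582 bases, against 585. The first exon was exon 2 in 21.9%, against 25.6%, and the spliced length was a multiple of 3 in 41.3%, against 38.2%. Those typed as intronic in the authors' table made up 8.62%, against 10.2%, but 32.6% of the Hdac circRNAs and 30% of the Arid circRNAs. This type is the authors' label and does not exclude exon edges. A circle of Hdac9 typed as intronic had its ends at the edges of exons 3 and 11 of an annotated transcript. Only 9 circRNAs (1.62%) carried a circBase identifier in the authors' table, against 2.75%, and these held 5.54% of the reads, against 31.8% for other hosts. The circle of Kmt2a exons 19 to 20 was one of the 9, while the leading circles of Arid1b, Chd2 and Setd3 had no such identifier.

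**Figure D2:**
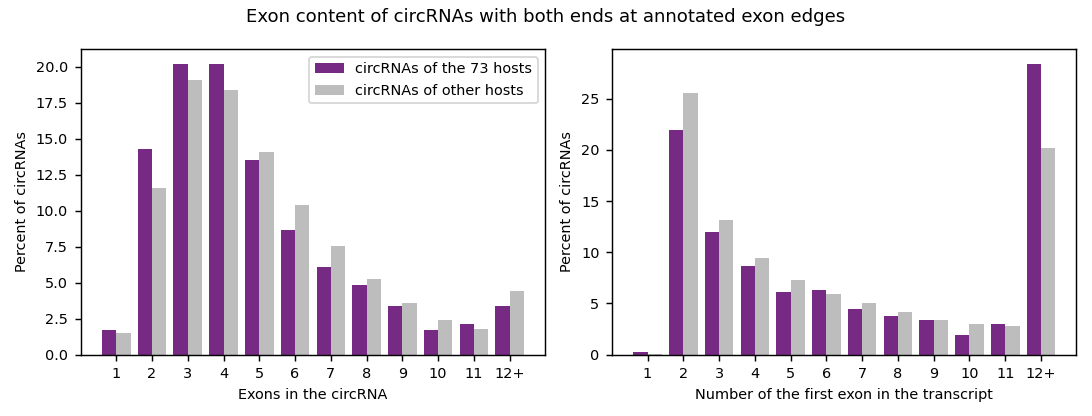
Percent of circRNAs (vertical axes) by number of exons (left) and by the number of the first exon (right). Shown are circRNAs typed as exonic with both ends at exon edges, 475 of the 73 hosts (purple) and those of other hosts (grey). The last bin holds 12 and more. Exon 2 was the first exon of 21.9% of the purple set and 25.6% of the grey set.

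Across differentiation, the circRNAs of the 73 hosts together kept a share of 1.08% to 1.26% of back-splice reads. Levels are given in CPM, back-splice reads scaled to a common library total with TMM factors, and each circle is counted at 1 junction, so levels of circles need no division by length. The summed level of the 73 hosts was 10986, 10429 and 11102 CPM in the day 0 libraries, 11957, 13173 and 12585 CPM at day 3, and 11005, 11305 and 11582 CPM at day 6. The day 3 libraries lay above the day 0 libraries without overlap, and the day 6 libraries overlapped with day 0. As plain shares of all reads the picture differed: 1.15%, 1.26% and 1.21% at day 3 overlapped with 1.16%, 1.15% and 1.11% at day 0, and 1.09%, 1.08% and 1.1% at day 6 lay below day 0. Without the katanin genes the day 6 statements changed: 10704, 10956 and 10908 CPM at day 6 lay above 10402, 10031 and 10331 CPM at day 0, and as plain shares 1.06%, 1.04% and 1.04% at day 6 overlapped with 1.1%, 1.11% and 1.03% at day 0. For these 68 hosts the means were 10254 ± 197, 12045 ± 536 and 10856 ± 134 CPM at days 0, 3 and 6 (SD, n = 3 each).

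Among the families, those of the Kmt and Setd symbols and of the Chd symbols had day 3 sums above day 0 without overlap. The Kmt and Setd hosts summed to 2658, 2486 and 2377 CPM at day 0, 3901, 3364 and 3182 CPM at day 3, and 3117, 2633 and 3142 CPM at day 6. The day 3 libraries were all above the day 0 libraries, also as plain shares of reads (0.374%, 0.322% and 0.305% at day 3, against 0.281%, 0.274% and 0.237% at day 0), and the day 6 libraries overlapped with day 0. Demethylases had 2667 ± 270, 2672 ± 111 and 2382 ± 109 CPM at days 0, 3 and 6, and Arid genes had 1492 ± 299, 2076 ± 416 and 1960 ± 389 CPM (SD, n = 3 each). Chd genes had 1438, 1528 and 1457 CPM at day 3, against 1088, 1363 and 1329 CPM at day 0, but as plain shares of reads these days overlapped. At day 6 the Chd genes had 1254 ± 97.6 CPM, and Smarc genes had 1295 ± 162, 1078 ± 342 and 1360 ± 313 CPM at days 0, 3 and 6. Acetyltransferases had 619 ± 121, 672 ± 213 and 530 ± 109 CPM, deacetylases 414 ± 205, 590 ± 166 and 405 ± 120 CPM, and katanin genes 584 ± 186, 527 ± 75.5 and 441 ± 203 CPM. Family sums were chosen with results known and were not tested.

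**Figure D3:**
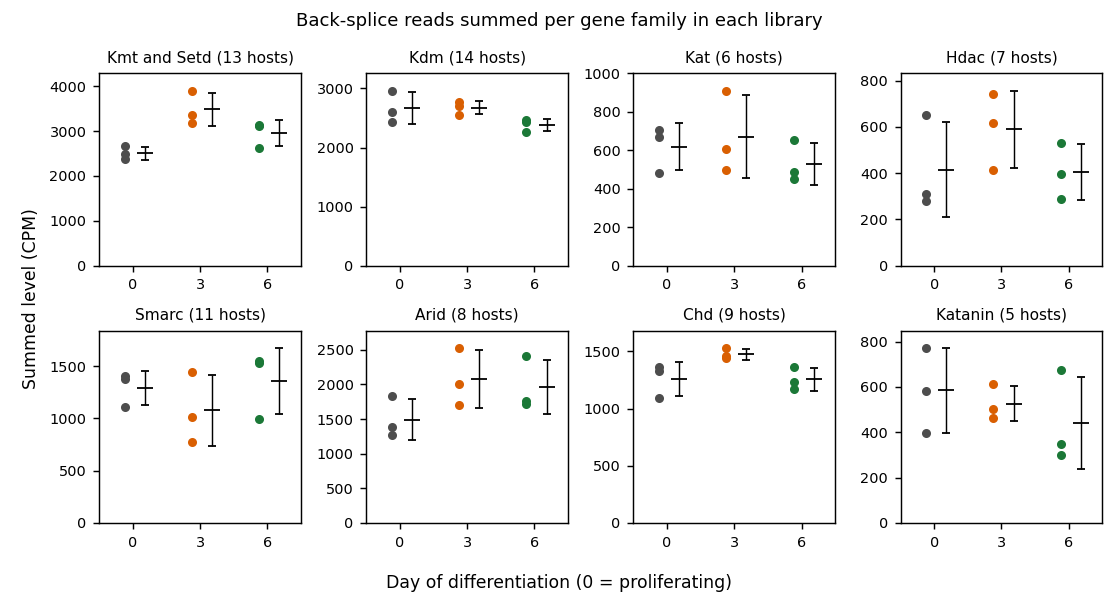
Summed level (CPM, vertical axes from 0) of each family in the 3 libraries of days 0, 3 and 6 (points), with mean and SD beside them. The Kmt and Setd points at day 3 (3182 to 3901 CPM) stand above those at day 0 (2377 to 2658 CPM), the Chd points at day 3 also stand above day 0, and in the other panels the later days overlap with day 0.

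Gene by gene, no chromatin host and no circRNA of one differed between days by the main test, edgeR's quasi-likelihood F-test with Benjamini-Hochberg adjustment over all features and a threshold of 0.05. The count filter kept 61 of the 73 hosts and 131 of the 557 circRNAs, and the 12 hosts left out had 13 to 34 reads each, in 1 to 3 libraries. For day 3 over day 0, 0 of 61 hosts passed, against 3.94% of all hosts tested. For day 6 over day 0, 0 of 61 passed, against 5.63% of all hosts, and for day 6 over day 3, 0 of 61, against 0.0726%. Hosts with an unadjusted p under 0.05 in edgeR numbered 7, 5 and 1 of 61 in these comparisons, against 13.4%, 17.5% and 5.95% of all hosts. DESeq2's Wald test on the same filtered rows called 1 host for day 3 over day 0, 3 for day 6 over day 0 and 0 for day 6 over day 3, against 8.2%, 13.8% and 0.489% of all hosts with an adjusted p.

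Single circRNAs gave the same result by edgeR, with 0 of 131 called in each comparison, against 1.58% of all circRNAs for day 3 over day 0, 1.99% for day 6 over day 0 and 0.0613% for day 6 over day 3. Those with an unadjusted p under 0.05 in edgeR numbered 12, 12 and 2 of 131, against 9.51%, 11.6% and 4.34% of all circRNAs. DESeq2 on filtered rows called 1, 2 and 0, against 6.04%, 10% and 0.389% of all circRNAs with an adjusted p. Of the 2, 1 had no reads at day 0 and passed the count filter through the later libraries alone, so its call is not read as a change. The test of a circRNA's usage, its share among the tested circRNAs of its own host, called 0 of 113 in each comparison by edgeR's diffSpliceDGE. The background was 0.0916% of all circRNAs for day 3 over day 0, 0.153% for day 6 over day 0 and 0.0153% for day 6 over day 3, and 7, 5 and 2 of the 113 had an unadjusted p under 0.05, against 5.13%, 6% and 3.5%. DESeq2 has no usage test, and none was run.

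The groups did not overlap for 10 of 61 hosts between day 3 and day 0 (7 higher and 3 lower at day 3), against 20.9% of all hosts (10.4% higher and 10.4% lower). Between day 6 and day 0 they did not overlap for 14 hosts (7 higher and 7 lower), against 23.7% (11% and 12.7%), and between day 6 and day 3 for 8 hosts (1 higher and 7 lower), against 11.2% (5.3% and 5.9%). The median log2 fold change over the 61 hosts was 0.07 for day 3 over day 0 and 0.04 for day 6 over day 0, beside -0.02 and -0.13 over all hosts. With library totals in place of TMM the medians were -0.08 and -0.08, beside -0.15 and -0.24 over all hosts, so the sign of the hosts' median depended on the scaling. Over the 131 tested circRNAs the medians were 0.52 and 0.20, beside 0.12 and 0.01 over all tested circRNAs. For day 3 over day 0, 75 of the 131 lay above 0 and 56 below, beside 4339 above and 3794 below of all 8153. These medians rest in part on circRNAs without reads in a whole group, 25 of 131 for day 3 over day 0 and 31 for day 6 over day 0. Over all tested circRNAs these numbered 1467 and 1687 of 8153. With such circRNAs set to the bound that 3 reads per library give, the medians were 0.29 and 0.00, beside 0.08 and 0.00 over all circRNAs. RNA came from whole cultures, in which fewer cells of a kind and less RNA per cell cannot be told apart.

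For the 12 hosts with the most reads, which held 61.1% of the reads, the data bound the size of a change. Their log2 fold changes ran from -0.85 to 0.97 for day 3 over day 0 and from -0.60 to 0.86 for day 6 over day 0. Their 95% intervals stayed within 0.307-fold to 3.24-fold at day 3 and 0.403-fold to 3-fold at day 6. The smallest adjusted p was 0.171 at day 3 and 0.195 at day 6 by edgeR's quasi-likelihood test, both for Kmt2a. Over all 59 tested hosts with reads on both days, the median distance of an interval's ends from its estimate was 2.20 for day 3 over day 0 on the log2 scale, so several-fold changes of most hosts were not detectable at this depth.

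**Figure D4:**
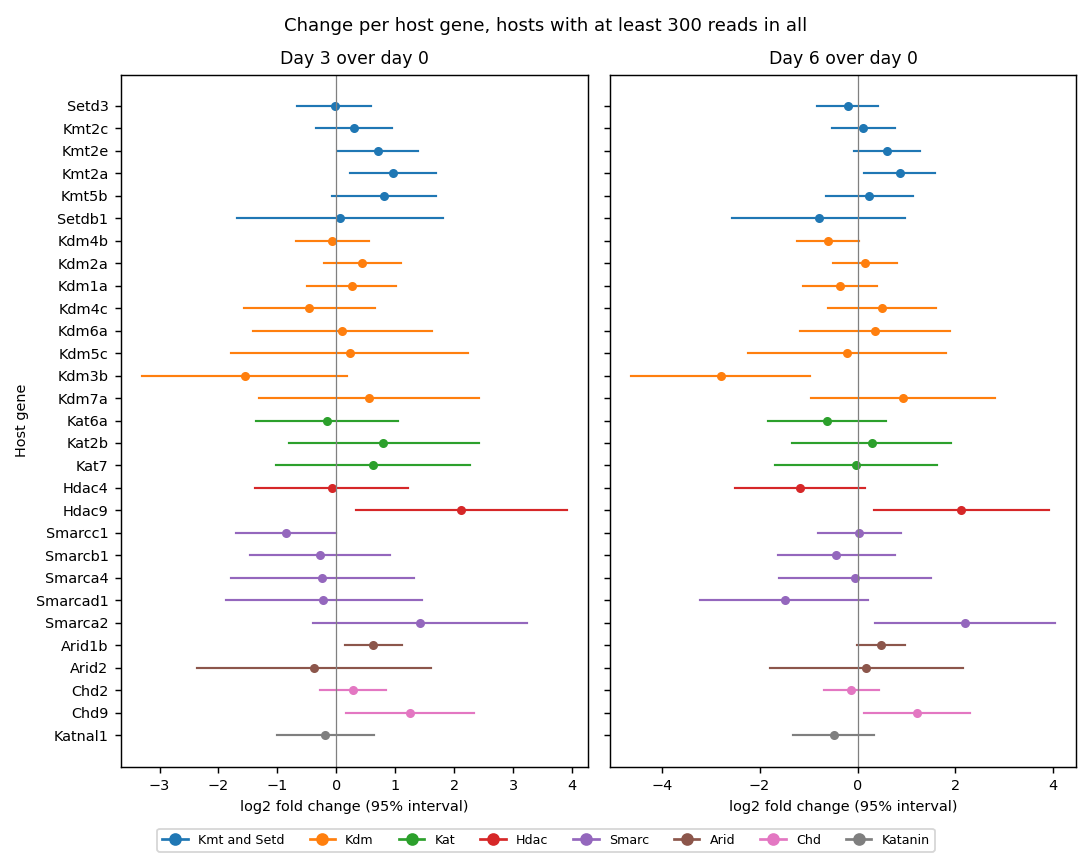
Log2 fold change (horizontal axes) of the 29 hosts with at least 300 reads in all, with 95% intervals from the approximate standard error, for day 3 over day 0 (left) and day 6 over day 0 (right), coloured by family. Intervals are narrow for hosts such as Arid1b (0.14 to 1.12 at day 3) and wide for Kdm3b (-4.63 to -0.97 at day 6); those that leave out 0 did so before adjustment for multiple tests.

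Methyltransferase hosts come first by role. Kmt2a had 244, 299 and 406 CPM at day 0, 849, 615 and 392 CPM at day 3, and 441, 715 and 565 CPM at day 6. The day 6 libraries were all above day 0, and the day 3 libraries overlapped with it in 1 library. Its log2 fold change was 0.97 ± 0.36 (SE) for day 3 over day 0 and 0.86 ± 0.36 for day 6 over day 0 (edgeR quasi-likelihood, adjusted p = 0.171 and 0.195). Kmt2e had 295, 445 and 402 CPM at day 0, 514, 541 and 814 CPM at day 3, and 722, 465 and 546 CPM at day 6. Here both later days lay above day 0 without overlap, at log2 fold changes of 0.71 ± 0.33 and 0.60 ± 0.33 (edgeR quasi-likelihood, adjusted p = 0.347 and 0.336). Kmt5b, which methylates histone H4, had 337, 236 and 254 CPM at day 0, 687, 411 and 357 CPM at day 3, and 175, 259 and 539 CPM at day 6. Its day 3 libraries lay above day 0 (log2 fold change 0.81 ± 0.44, edgeR quasi-likelihood adjusted p = 0.408), and its day 6 libraries spread on both sides of day 0.

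Kmt2c, an enhancer methyltransferase also known as MLL3, had 620, 414 and 528 CPM at day 0, 706, 688 and 531 CPM at day 3, and 800, 418 and 484 CPM at day 6. Setd3 had 715, 646 and 463 CPM at day 0, 706, 544 and 534 CPM at day 3, and 601, 461 and 525 CPM at day 6. For both genes the 3 days overlapped, and the log2 fold changes for day 3 over day 0 were 0.30 ± 0.32 and -0.03 ± 0.31. The 2 circles of Kmt2a that share exon 20 had means of 141 ± 54.1, 343 ± 154 and 331 ± 55.8 CPM (exons 19 to 20) and 115 ± 50.5, 176 ± 106 and 163 ± 106 CPM (exons 16 to 20) at days 0, 3 and 6 (SD, n = 3 each).

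Among demethylases, Kdm4b removes repressive methyl marks from histone H3. It had 668, 776 and 695 CPM at day 0, 869, 723 and 445 CPM at day 3, and 553, 366 and 491 CPM at day 6. The day 6 libraries were all below day 0, at a log2 fold change of -0.60 ± 0.31 (edgeR quasi-likelihood adjusted p = 0.3). Kdm1a, the flavin-dependent demethylase LSD1, had 390, 402 and 437 CPM at day 0, 621, 407 and 439 CPM at day 3, and 320, 241 and 392 CPM at day 6. Kdm2a, a demethylase that binds CpG islands, had 560, 496 and 395 CPM at day 0, 612, 541 and 820 CPM at day 3, and 645, 608 and 369 CPM at day 6. Both genes overlapped between day 0 and each later day. The leading circle of Kdm1a, exons 3 to 9, had 71, 84 and 68 reads at day 0, 123, 73 and 60 at day 3, and 31, 34 and 76 at day 6. In CPM its day 6 libraries were below day 0 without overlap, at a log2 fold change of -0.83 ± 0.58 (edgeR quasi-likelihood adjusted p = 0.511).

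Among remodellers, Arid1b had 843, 1147 and 1200 CPM at day 0, 1132, 1763 and 2046 CPM at day 3, and 1382, 1870 and 1184 CPM at day 6. The highest libraries were at the later days, and 1 library of each later day lay within the day 0 range. Its log2 fold change was 0.63 ± 0.24 for day 3 over day 0 and 0.48 ± 0.24 for day 6 over day 0 (edgeR quasi-likelihood, adjusted p = 0.191 and 0.297). Its leading circle, exons 2 to 4, had 188, 224 and 241 reads at day 0, 294, 423 and 513 at day 3, and 225, 312 and 370 at day 6. The log2 fold change of that circle was 0.71 ± 0.27 for day 3 over day 0 (edgeR quasi-likelihood adjusted p = 0.361).

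Chd2, a remodeller known in myoblasts for loading a histone variant at muscle genes together with MyoD, had 626, 705 and 775 CPM at day 0, 761, 741 and 1064 CPM at day 3, and 625, 603 and 697 CPM at day 6. All days overlapped with day 0, and its log2 fold changes were 0.29 ± 0.28 for day 3 over day 0 and -0.13 ± 0.28 for day 6 over day 0. Smarcc1 had 301, 512 and 585 CPM at day 0, 169, 446 and 159 CPM at day 3, and 461, 401 and 574 CPM at day 6. It was the lowest of the 12 hosts in log2 fold change for day 3 over day 0, at -0.85 ± 0.42 (edgeR quasi-likelihood adjusted p = 0.371), with overlap in 1 day 3 library, day 3 replicate 2. Without that library the Smarcc1 value was -1.50 (edgeR quasi-likelihood adjusted p = 0.0703). Over all fits that left out 1 library it was -1.50 to -0.59 (edgeR quasi-likelihood adjusted p = 0.0703 to 0.616). Katnal1 had 483, 335 and 611 CPM at day 0, 368, 390 and 498 CPM at day 3, and 262, 181 and 569 CPM at day 6, and its days overlapped. Its leading circle, exons 2 to 4, had 80, 63 and 60 reads at day 0, 72, 48 and 95 at day 3, and 29, 22 and 112 at day 6, with overlap in CPM between day 0 and each later day.

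Kat6a led the acetyltransferases and Hdac4 the deacetylases. Kat6a had 244, 248 and 220 CPM at day 0, 208, 277 and 153 CPM at day 3, and 107, 159 and 191 CPM at day 6. Hdac4, a class IIa deacetylase known for holding the muscle factor Mef2 in check, had 241, 276 and 205 CPM at day 0, 208, 123 and 351 CPM at day 3, and 102, 47.4 and 168 CPM at day 6. For both, the day 6 libraries lay below day 0, at log2 fold changes of -0.63 ± 0.60 and -1.17 ± 0.65 (edgeR quasi-likelihood, adjusted p = 0.726 and 0.337). Katanin genes with fewer reads included Katna1 with 200, Katnbl1 with 38 and Katnal2 with 16 over the 9 libraries.

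**Figure D5:**
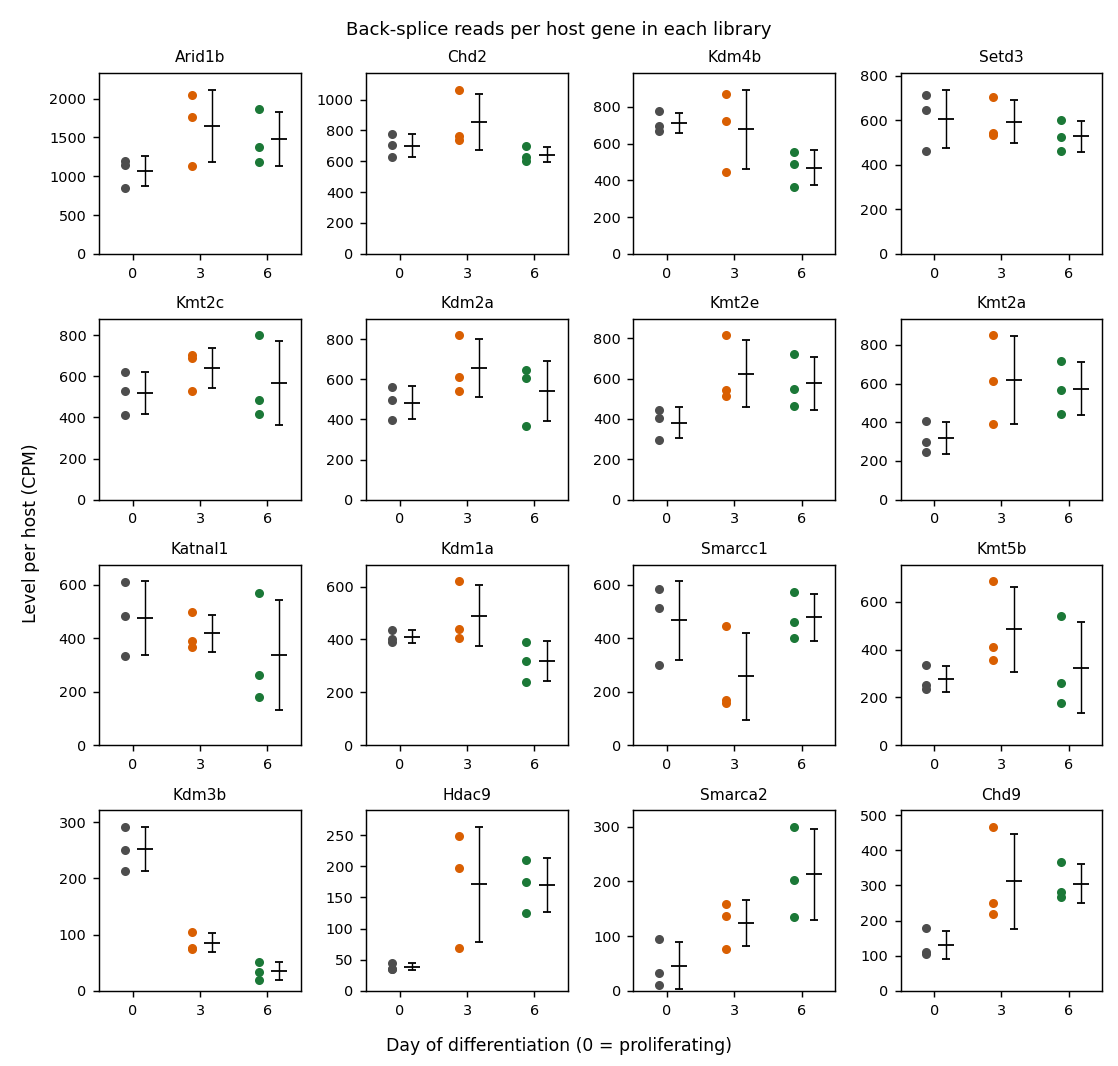
Level per host (CPM, vertical axes) in the 3 libraries of days 0, 3 and 6 (points), with mean and SD beside them; the first 12 panels are the hosts with the most reads, and the last 4 were picked after their values were seen. Kmt2e at both later days stands above day 0, Kdm3b at both later days stands below it, and most of the other first 12 panels overlap.

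Some hosts of fewer reads showed larger differences and were picked after their values were seen. Kdm3b, a demethylase of histone H3, came nearest to the threshold. It had 98, 54 and 66 reads at day 0, 23, 30 and 26 at day 3, and 4, 8 and 22 at day 6, or 252 ± 39.7, 85.6 ± 17.1 and 35.3 ± 16.3 CPM (SD, n = 3 each). No later library overlapped with day 0, and its log2 fold change was -2.80 ± 0.90 for day 6 over day 0 and -1.55 ± 0.86 for day 3 over day 0 (edgeR quasi-likelihood, adjusted p = 0.0613 and 0.421). The call for day 6 depended on the processing: the adjusted p was 0.0435 with library totals, 0.0474 with DESeq2's size factors and 0.0487 with a minimum count of 10 in edgeR, and 0.000246 by DESeq2 on filtered rows. Its circle of exons 2 to 6 had 23, 42 and 57 reads at day 0, 10, 12 and 11 at day 3, and 4, 0 and 0 at day 6.

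Hdac9, a class IIa deacetylase like Hdac4, stood in the opposite direction. It had 12, 9 and 12 reads at day 0, 21, 56 and 84 at day 3, and 36, 29 and 89 at day 6. Both later days lay above day 0 without overlap, with a log2 fold change of 2.12 ± 0.88 in both comparisons (edgeR quasi-likelihood, adjusted p = 0.252 at day 3 and 0.195 at day 6). DESeq2 on filtered rows called both, at adjusted p = 0.0456 and 0.0277.

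Smarca2, the ATPase BRM of the BAF complex, had 11, 24 and 3 reads at day 0, 42, 45 and 26 at day 3, and 28, 47 and 127 at day 6. Day 6 lay above day 0 without overlap, at a log2 fold change of 2.20 ± 0.91 (edgeR quasi-likelihood adjusted p = 0.189). DESeq2 on filtered rows called it at adjusted p = 0.0446. Smarca2 passed the count filter through the later libraries, since its day 0 libraries alone would not have passed it. Its fold and call are therefore not read as a change. Without day 0 replicate 2 the Smarca2 value was 3.21, and over all fits that left out 1 library it was 1.76 to 3.21. Chd9, a chromodomain remodeller, had 35, 28 and 47 reads at day 0, 77, 133 and 74 at day 3, and 76, 62 and 119 at day 6. Its log2 fold changes were 1.25 ± 0.53 for day 3 over day 0 and 1.22 ± 0.53 for day 6 over day 0, with no overlap (edgeR quasi-likelihood, adjusted p = 0.276 and 0.232). Setd2, which methylates histone H3 along transcribed genes, had 21, 3 and 9 reads at day 0, 65, 41 and 47 at day 3, and 13, 30 and 38 at day 6. Its log2 fold change for day 3 over day 0 was 2.16 ± 1.08 (edgeR quasi-likelihood adjusted p = 0.383). The day 0 libraries of Setd2 alone would not have passed the count filter either, so this fold is not read as a change. Leaving out 1 library gave 1.74 to 2.80 for Setd2, the highest without day 0 replicate 1.

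At Smarcc1, 6 of 17 circRNAs began at exon 14 and held 67.9% of its reads. The leading circle, exons 14 to 19, had 52, 105 and 76 reads at day 0, 31, 40 and 18 at day 3, and 48, 28 and 46 at day 6. The day 3 libraries were below day 0, with a log2 fold change of -1.57 ± 0.71 (edgeR quasi-likelihood adjusted p = 0.422), and DESeq2 on filtered rows called it at adjusted p = 0.0421. A shorter circle with the same start, exons 14 to 16, had no reads at day 0, 16, 25 and 0 at day 3, and 14, 19 and 29 at day 6. This shorter circle was picked after its values were seen, and it passed the count filter through the later libraries alone. No fold for it, and no test of its level or usage, is therefore given.

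Presence and absence of each circRNA are set beside those of the whole table. Of the 557 circRNAs, 122 (21.9%) were seen at day 0 only, against 24.9% of all circRNAs, and 272 (48.8%) at day 3 or day 6 only, against 47.6%. At the level of genes, 27 of the 73 hosts (37%) had reads in all 9 libraries, against 22% of all hosts. Just 3 circRNAs (0.539%, against 0.183%) had reads in all 3 day 0 libraries and in no later one, and 0 (against 0.132% of all circRNAs) had the opposite pattern. They were exons 4 to 7 of Chd7 (14, 33 and 7 reads), exons 14 to 18 of Kdm5a (10, 23 and 15 reads) and exons 4 to 7 of Smarcb1 (6, 8 and 25 reads), all named after their values were seen. The smallest count above 0 in the table is 2, so a listed 0 may stand for a single read.

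Other chromatin genes without these prefixes were counted in the same way. Of 87 such genes, 72 were hosts and 56 were tested. The summed level of these hosts was 18080 ± 202, 15829 ± 855 and 14879 ± 1348 CPM at days 0, 3 and 6 (SD, n = 3 each). In CPM the libraries of each later day lay below day 0 without overlap, and this sum was not tested. By edgeR, 2 of the 56 were called for day 3 over day 0, both lower, against 3.94% of all hosts in either direction. For day 6 over day 0, 3 of the 56 were called, all lower, against 5.63% of all hosts in either direction. Of all hosts, 3.05% were called higher and 0.895% lower for day 3 over day 0, and 3.85% higher and 1.79% lower for day 6 over day 0. Ezh2, the catalytic subunit of Polycomb repressive complex PRC2, averaged 408 ± 245 CPM at day 3 and 424 ± 184 CPM at day 6, against 1332 ± 76.2 CPM at day 0 (SD, n = 3 each). It fell at both days, by 1.71 and 1.66 on the log2 scale (edgeR quasi-likelihood, adjusted p = 0.00138 and 0.00158). Nsd2, a methyltransferase of histone H3, averaged 764 ± 185 CPM at day 3 and 526 ± 94.9 CPM at day 6, against 1709 ± 248 CPM at day 0, and fell by 1.16 and 1.69 (edgeR quasi-likelihood, adjusted p = 0.00364 and 1.91e-05). Mta1, a subunit of the NuRD deacetylase complex, averaged 238 ± 53.4 CPM at day 6, against 777 ± 160 CPM at day 0, and fell by 1.70 (edgeR quasi-likelihood adjusted p = 0.00164). Whether the 73 hosts differed from this list was not tested.

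The libraries held 208787 to 443955 back-splice reads, and intervals cover counting error and spread only, since PCR reads without molecular identifiers are not independent molecules. As a check of the labels, the summed level of hosts among 20 muscle genes was 937 ± 37.6, 12594 ± 645 and 16559 ± 2262 CPM at days 0, 3 and 6, and that of hosts among 20 proliferation genes was 12212 ± 1117, 2875 ± 364 and 1548 ± 539 CPM (SD, n = 3 each). Of 17 markers of other cell types, 2 were hosts (Pparg and Runx2), with summed levels of 330 to 678, 495 to 878 and 384 to 640 CPM at days 0, 3 and 6. The part of proliferation in the values of Kdm3b, Ezh2, Nsd2 and Mta1 was not tested.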

How the data were processed

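Back-splice reads were measured in 9 libraries. The authors deposited 1 table of raw counts per circRNA and library, with locus, type and host gene. BWA and build GRCm38.p4 (mm10) are named per the submitters' processing notes, and the circRNA caller is not given in the sources used here. Per the labels' protocols, RNA was extracted with TRIzol and passed through a bead clean-up kit and DNase before an mRNA-seq kit was used. The smallest count above 0 is 2. Symbols came from GENCODE M21 for 6861 of 6943 hosts. Counts per circRNA, and summed per host, were tested with edgeR 4.0.16 (R 4.3.3), by the quasi-likelihood F-test with TMM factors, filterByExpr (minimum count 5, minimum total 15), group means of all 9 libraries and Benjamini-Hochberg adjustment over all features. The fit of hosts used totals of reads with a host. edgeR gives no standard error for its log2 fold changes (prior count 0.125), so SE and 95% intervals are approximations from the fold change over the square root of F. The scripts were tested on simulated data. Alternatives were library totals, DESeq2 size factors, filters, DESeq2 1.42.0, a replicate block and leaving out each library. DESeq2 on filtered rows was added after the data were seen. The text names the 12 hosts and 12 circRNAs with the most reads, the 5 hosts with the most circRNAs, the leading host of each family, katanin genes and called genes of the other chromatin list. The hosts and lists were chosen with earlier results of these data known. Each count column was matched to a sample by name. The values of 1 host are not reported here.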

Additional observations from a re-analysis of the deposited data

How the results depend on the processing

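Among the hosts with these prefixes and their circRNAs, the counts of calls stayed at 0 under every setting that was run except the following. For day 6 over day 0, library totals, DESeq2 size factors and a minimum count of 10 each gave 1 called host, Kdm3b, and DESeq2's test gave 3 with and without the filter on rows (Kdm3b, Hdac9 and Smarca2). Smarca2 passed that filter through the later libraries, so its call is not read as a change. For day 3 over day 0, DESeq2's test gave 1 host, Hdac9, with and without that filter. DESeq2 on filtered rows gave 1 called circRNA for day 3 over day 0 and 2 for day 6 over day 0, while without that filter it called no circRNA of the whole table. Of those 2, 1 had no reads at day 0 and passed the filter through the later libraries alone, so its call is not read as a change. The cause of these differences between tools was not tested. Leaving out each library in turn gave 0 called circRNAs and 0 called usages in each comparison, and 0 to 1 called hosts for day 6 over day 0 (0 to 0 in the other comparisons). Those calls were Smarcc2 without day 0 replicate 1 (edgeR adjusted p = 0.0468), which held all its day 0 reads, and Chd1 without day 6 replicate 1 (edgeR adjusted p = 0.00609), which held all its day 6 reads. For Kdm3b at day 6 over day 0 the adjusted p over leave-one-out fits was 0.0623 to 0.271. Of 1785 recomputed values of named hosts and circRNAs, 1692 kept direction and side of the threshold, 15 newly passed it and 78 changed sign without a call. Same-numbered libraries of different days had correlations of deviations of -0.0333 to -0.000518 over hosts, and differently numbered ones had -0.0245 to 0.0419. These values show no closer likeness of same-numbered libraries, but with many hosts of few reads they cannot exclude a pairing. A replicate block left 0 called circRNAs and 0 called hosts. Depth limits the hosts of few reads most.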
